A study of Drosophila melanogaster with 8 samples.

Results

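The study lists 442 regions of the *Drosophila melanogaster* genome at which a Dll peak and an Sp1 peak met in open chromatin, mapped by FAIRE, that also held predicted sites for Dll, Sp1, Mad and Pan, and it names the nearest annotated gene for most of them. Described here are the 51 genes that were named for 2 or more of these regions, out of 339 genes named in all. They account for 132 regions, which is 29.9% of the list. A further 288 genes were named for 1 region each, and 22 regions carry no gene. Of the 51 genes, 31 had 2 regions, 13 had 3, 5 had 4, *CG3473* had 5 and *jing* had 6. The regions were chosen by the presence of both a Dll and an Sp1 peak, so the values of these peaks are given as a description and were not tested.

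A gene that is expressed in several parts of a limb is often driven by several separate *cis*-regulatory modules (CRMs), stretches of DNA that bind combinations of transcription factors and switch on a nearby promoter. In the leg imaginal disc, the larval precursor of the adult leg, the homeodomain protein Distal-less (Dll) marks the distal cells and the zinc finger protein Sp1 is needed for leg identity and growth. Mad and Pan carry the signals of Dpp and Wg to their target genes, and a stretch bound by all of these factors can combine position along the leg with these signals. A region near a gene is a candidate for such a CRM, and nearness alone does not show which gene it acts on. The study also tested fragments in reporter genes, and 7 of them overlap 9 of the regions described here, at *Dll*, *disco*, *spi* and *Antp*. Leg disc enhancers are reported there near every gene so tested, apart from *disco*.

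Binding was measured by ChIP-seq, in which an antibody pulls a protein down together with its DNA, and the sequenced reads are counted against input chromatin that was not precipitated. All chromatin came from leg discs of wandering L3 larvae, in pools of 100 larvae with all 6 leg discs of each. Dll was precipitated with an anti-Dll antibody from *yw* larvae, with 3 ChIP libraries and 1 input library, and Sp1 with an anti-GFP antibody from Sp1-GFP (BAC) larvae, which carry GFP-tagged Sp1 on an inserted BAC clone, again with 3 ChIP libraries and 1 input library. The genotype, the antibody and the factor therefore cannot be told apart between the lists. The authors called peaks on merged libraries and deposited 1 list for each factor, with 12319 Dll peaks and 9850 Sp1 peaks in dm3 coordinates. Each peak has a −log10 q value, used here as its score, which measures how clearly the ChIP reads exceed input and is compared only within a list. Dll scores run from 4 to 60.31, and the highest Sp1 score is 84.94. No single library has a value of its own, which leaves the error between replicates unmeasured, and the read depth is unknown. Positions are printed as the lists give them, without a statement of whether starts count from 0 or 1. The identity of the tissue could not be checked, because the lists hold no expression.

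The regions of these genes were spread over very different distances. The 51 genes gave 81 gaps between neighbouring regions, measured from the end of a region to the start of the next. The median gap was 4830 bp, with quartiles of 594 and 13559 bp. The shortest was 53 bp, between the first and the second region of *Tet*, the gene of a dioxygenase that acts on methylated nucleic acids. The longest was 42296 bp, between the 2 regions of *Mur2B*, which encodes a mucin-related protein. Of the 81 gaps, 25 were shorter than 1 kb, 28 lay between 1 and 10 kb, and 28 were 10 kb or longer. From the first to the last region, a gene spanned a median of 9858 bp, from 1023 bp at *upd3* to 82010 bp at *jing*. The span was under 2 kb for 10 genes and over 10 kb for 25. Close and distant regions also occurred at the same gene: of the 20 genes with 3 or more regions, 8 had both a gap under 1 kb and a gap of 10 kb or more.

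**Figure D1:**
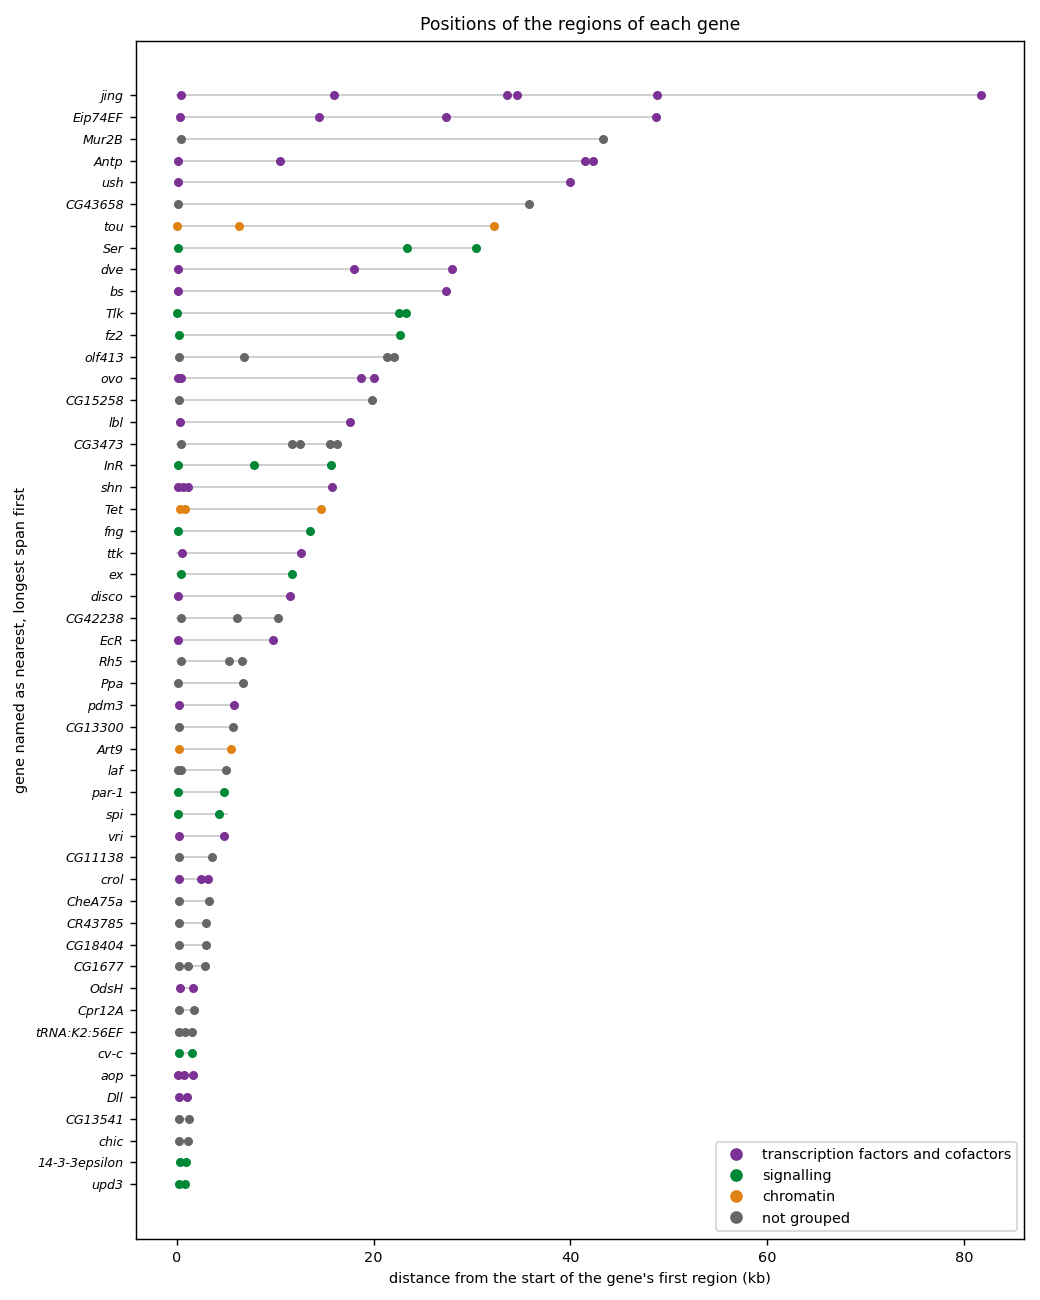
Position of each region (points, at its middle) as the distance in kb from the start of the gene's first region, for the 51 genes, with the longest span at the top and the colours giving the role of the gene. *jing* spans 82010 bp and *upd3* 1023 bp, and several genes, such as *olf413*, *ovo* and *shn*, have close regions together with a distant one.

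Many close regions were parts of the same Dll peak. The 132 regions lay in 116 different Dll peaks and in 131 different Sp1 peaks. A single Dll peak held 2 or more regions in 15 cases, which took in 31 regions of 15 genes. These Dll peaks were 1649 bp long at the median, from 531 to 3632 bp, against 878 bp for the 101 Dll peaks that held 1 region and 293 bp for the whole Dll list. Of the 16 gaps that lay inside a Dll peak, only that of *Dll* also lay inside a single Sp1 peak. A region overlaps an Sp1 peak by the rule, and 82 of the 132 have the coordinates of one. Separate Sp1 peaks within a Dll peak are thus largely given by how the regions were defined. The gaps inside a Dll peak had a median of 236.5 bp and reached 1771 bp at *crol*, where 1 Dll peak held all 3 regions. The 65 gaps between different Dll peaks had a median of 7268 bp, and the shortest of them was 90 bp, at *shn*. Of the 25 gaps under 1 kb, 15 lay inside a Dll peak and 10 between 2 Dll peaks.

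**Figure D2:**
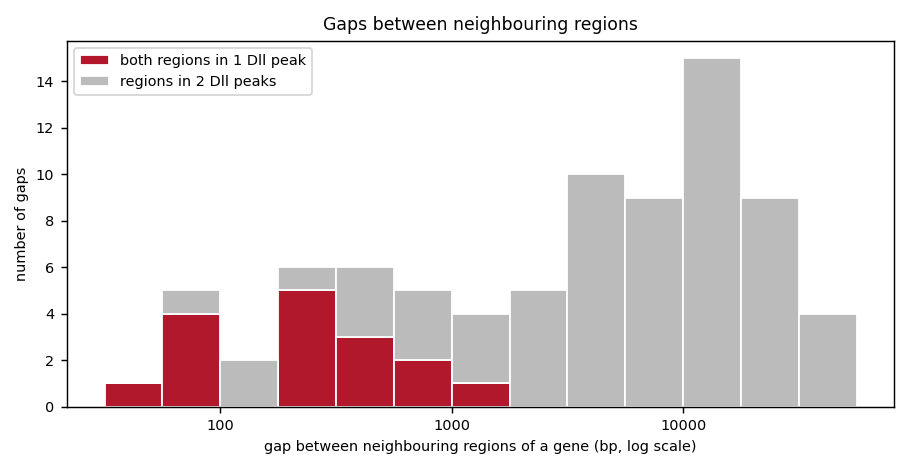
Number of gaps between neighbouring regions of a gene by length in bp (log scale), stacked by whether both regions lie in 1 Dll peak (red) or in 2 (grey). The 16 red gaps are all at 1771 bp or below, and the 65 grey gaps extend to 42296 bp.

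For 5 genes all regions lay in 1 Dll peak: *14-3-3epsilon*, *CG13541*, *crol*, *Dll* and *OdsH*. The other 46 genes had regions in at least 2 Dll peaks. When Dll peaks within 500 bp of each other were joined, 36 genes still had regions in 2 or more stretches, and at 15 genes all regions fell in a single stretch, *spi*, *aop*, *upd3*, *chic* and *cv-c* among them. The number of regions of a gene is therefore not a number of separately bound intervals.

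Of the 288 regions of genes named for 1 region, 165 had the coordinates of an Sp1 peak. Of the 132 regions described here, 82 had them, and none had the coordinates of a Dll peak. A region was 421 bp long at the median, from 110 to 1494 bp, and took up a median of 43.7% of its Dll peak. The score of the Dll peak under a region ranged from 4.26, at the last region of *Antp*, to 49.86, at the last region of *CG3473*, with a median of 17.58. The score of the Sp1 peak ranged from 4.04, at the first region of *disco*, to 40.82, at the first region of *CG42238*, with a median of 14.7. In percentile ranks within each list, the medians were 90.8 for Dll and 90.9 for Sp1. A Dll rank of 90 or more was found for 73 regions, or 55.3%, against 43.7% of all 442 regions. For Sp1 it was found for 70 regions, or 53.0%, against 40.5% of all regions. Regions that share a peak each counted its score in these shares. The Dll peaks that held 2 or more regions had a median score of 26.93, against 16.51 for those that held 1. With each peak counted once, the median ranks were 90.4 for Dll and 90.6 for Sp1. Both ranks were 90 or more at 47 regions of 33 genes, and a gene with several regions has more chances for this. At the other end, 12 regions had a Dll rank under 50 and 13 had an Sp1 rank under 50. The matching shares of all 442 regions are not given here, so these counts describe the 132 regions only.

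Genes named for 1 region lie just outside the rule, and their medians were lower. The median Dll score under a region was 14.7 for the 288 genes with 1 region, 16.8 for the 31 genes with 2 and 18.25 for the 20 genes with 3 or more. For Sp1 the medians were 11.1, 15.9 and 13.9, so the genes with 3 or more regions did not have the highest value. The quartiles overlapped: for Dll they were 10.1 and 19.4 with 1 region and 12.4 and 25.8 with 2 or more, and for Sp1 they were 7.45 and 17.3 with 1 region and 9.66 and 22.5 with 2 or more. The Dll peaks under a region were also longer, with a median of 1063 bp for genes with 2 or more regions and 814.5 bp for genes with 1. A long peak can hold more regions, and its part in the difference in score was not tested. Regions of 1 gene share peaks and surroundings and are not replicates, so no test of these differences was made.

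**Figure D3:**
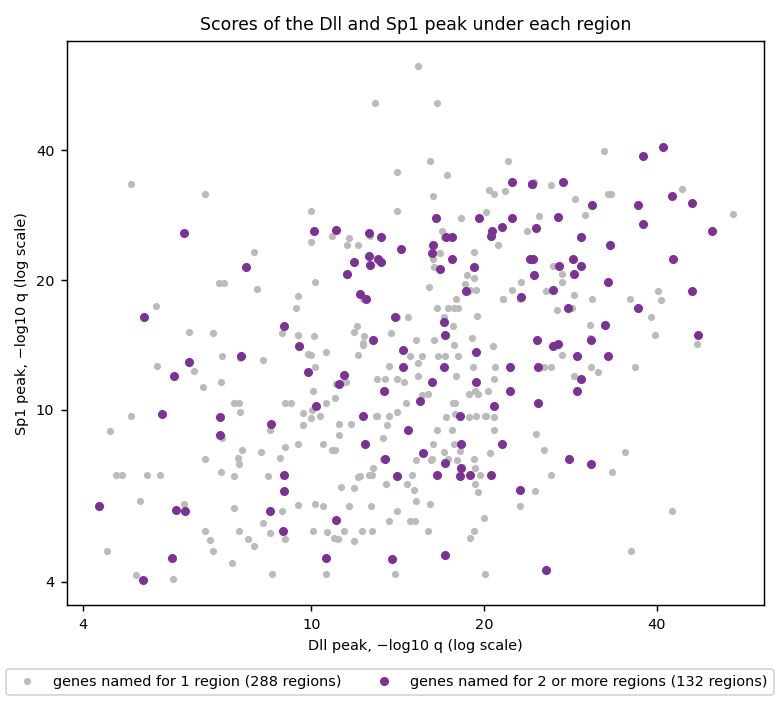
Score (−log10 q) of the Dll peak (horizontal, log scale) and of the Sp1 peak (vertical, log scale) under each region, for the 288 genes named for 1 region (grey) and the 132 regions of the 51 genes named for 2 or more (purple). The 2 sets overlap over most of the range, the highest scores of both factors belong to grey points, and the purple points have medians of 17.58 for Dll and 14.7 for Sp1.

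Across the 132 regions the scores of the 2 factors rose together only loosely (Spearman's rho 0.41 and Pearson's r of log10 scores 0.44, over regions that share peaks and were chosen for having both). Regions of the same gene often differed. Of the 27 genes with 2 regions in 2 different Dll peaks, 12 had Dll scores and 11 had Sp1 scores that differed by 2 times or more between the regions. The same region had the higher score for both factors at 16 of these 27 genes, and at the other 11 each factor had its higher score at a different region.

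Around the regions, 626 Dll peaks and 628 Sp1 peaks lay within 10 kb. These windows cover 1.68 Mb, and no Dll peak lay within 10 kb of 2 of the 51 genes. With peaks within 500 bp of each other joined, the numbers were 250 and 252. Without joining, the windows held 5.1% of the Dll list and 6.4% of the Sp1 list. Per 10 kb of window lay 3.73 Dll and 3.74 Sp1 peaks, against 0.99 and 0.82 over the 5 long chromosome arms. The windows are placed around peaks of both factors by the rule, so these densities are a description. Of the 626 Dll peaks, 372 overlapped an Sp1 peak, which is 59.4% (95% Wilson interval 55.5% to 63.2%), against 43.1% of the whole Dll list. Of the 628 Sp1 peaks, 566 overlapped a Dll peak, which is 90.1% (95% Wilson interval 87.5% to 92.2%), against 72.1% of the whole Sp1 list. These intervals hold for counting error alone, as if every peak were independent. Peaks under a region overlap the other factor by the rule. Without them, 256 of 510 Dll peaks, or 50.2%, and 435 of 497 Sp1 peaks, or 87.5%, overlapped the other factor. When the overlap had to cover at least 50% of both peaks, the shares were 24.0% of the 626 Dll peaks and 23.9% of the 628 Sp1 peaks. For genes with 1 region, with the peaks under it counted, the shares were 55.4% for Dll and 85.0% for Sp1, which also lie above those of the whole lists. With peaks under a region counted, every Sp1 peak within 10 kb overlapped a Dll peak at 27 of the 51 genes. Every Dll peak overlapped an Sp1 peak at 5: *CG11138*, *chic*, *cv-c*, *ttk* and *vri*. The whole lists differ in the same direction, with 72.1% for Sp1 and 43.1% for Dll. The matching counts over all named genes are not given here, so these 2 counts describe the 51 genes only.

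A region of a gene with 2 or more had a median of 8 Dll peaks and 8 Sp1 peaks within 10 kb, and a region of a gene with 1 had 5 of each. A window that takes in another region of the gene also takes in its peaks, and the part of this in the difference was not tested. Per gene, the number of Dll peaks within 10 kb of any region ranged from 4, at *CG11138*, *CG13541*, *bs* and *ttk*, to 29 at *jing*. The number of Sp1 peaks ranged from 4, at *CG13541*, *bs* and *tRNA:K2:56EF*, to 25 at *shn*. These counts are not adjusted for the length of the windows, which ran from 21.0 kb at *upd3* to 89.6 kb at *jing*. Per 10 kb of window, *jing* had 3.24 Dll peaks, and the most were 7.37 at *CG18404*. For Sp1, *shn* had 6.95 per 10 kb, and the most were 9.92 at *chic*. Sp1 peaks outnumbered Dll peaks at 23 genes, Dll peaks outnumbered Sp1 peaks at 21, and the numbers were equal at 7. The largest surplus of Dll peaks was at *ovo*, with 23 Dll and 11 Sp1 peaks. The largest surplus of Sp1 peaks was at *ex*, with 13 Dll and 22 Sp1 peaks, and at *chic*, with 12 and 21. *ush* had 8 Dll and 15 Sp1 peaks, and 8 of these Sp1 peaks had no Dll peak.

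**Figure D4:**
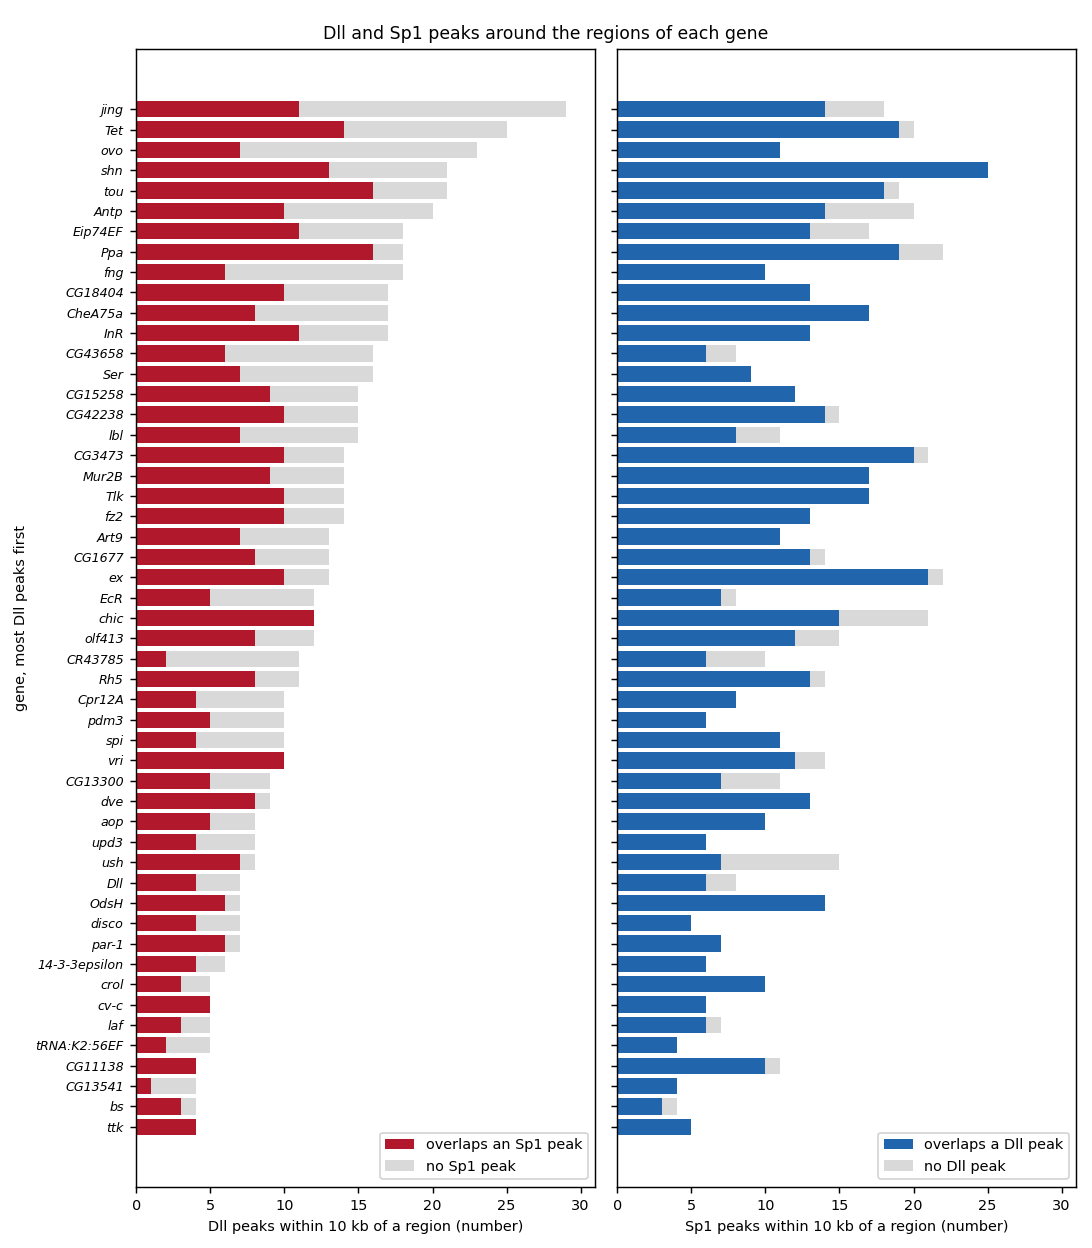
Number of Dll peaks (left) and Sp1 peaks (right) within 10 kb of a region for each of the 51 genes, split into peaks that overlap the other factor (coloured) and peaks that do not (grey). *jing* has the most Dll peaks, 29, of which 11 overlap an Sp1 peak, and *shn* has the most Sp1 peaks, 25, all of which overlap a Dll peak. In the whole lists, 43.1% of Dll peaks and 72.1% of Sp1 peaks overlap the other factor. All Sp1 peaks overlap a Dll peak at 27 of the 51 genes. The counts are not adjusted for window length, which is 89.6 kb at *jing* and 36.0 kb at *shn*.

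The strongest Dll peak within 10 kb lay under a region at 39 of the 51 genes, or 76.5%, against 57.8% of all 339 genes. The strongest Sp1 peak lay under a region at 35, or 68.6%, against 53.7% of all genes. A gene with several regions has more chances for this than a gene with 1. At 30 genes both strongest peaks lay under a region, and at 7 genes neither did: *CG18404*, *EcR*, *InR*, *aop*, *chic*, *lbl* and *tou*. The shares of all 339 genes for both and for neither are not given here. At 3 genes, *Antp*, *bs* and *lbl*, the strongest Sp1 peak lay outside the regions and had no Dll peak, with scores of 84.94, 48.15 and 49.37 at distances of 4061, 4697 and 7857 bp from the nearest region. Only at *CG18404* did the strongest Dll peak, with a score of 27.25, lack an Sp1 peak.

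By role, 18 of the 51 genes were listed as transcription factors or their cofactors, with 51 regions. Another 11 were listed as signalling proteins and kinases, with 25 regions, and 3 as acting on chromatin or methylation, with 8 regions. The other 19, with 48 regions, were not grouped, and a gene among them may still have such a role. The median Dll score of a region was 18.25 for the transcription factors, 17.58 for signalling, 17.9 for chromatin and 16.49 for the genes not grouped. The median Sp1 scores were 15.98, 14.94, 11.96 and 14.7 in the same order. The spans differed more than the scores. The median span was 14428 bp for transcription factors, 11994 bp for signalling genes, 14778 bp for the chromatin genes and 5273 bp for the genes not grouped. A span also grows with the number of regions. The median gaps between neighbouring regions were 9975, 6857, 6090 and 2746 bp in the same order. No test was made between these groups, which were drawn up with earlier results of the same lists known.

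*Dll* itself had 2 regions on chromosome 2R, from 20701105 to 20701648 and from 20701846 to 20702491, 198 bp apart. It was the only gene whose regions shared both their Dll peak, with a score of 24.23, and their Sp1 peak, with 33.41. Both were the strongest peaks of their factor within 10 kb, where 7 Dll and 8 Sp1 peaks lay. Counted by peaks, the 2 regions of *Dll* are thus 1 bound interval. A region of the list without a named gene lay within 10 kb of them.

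*Antp*, the Hox gene that gives the middle thoracic segment and its legs their identity, had 4 regions on 3R that spanned 42566 bp. The first, from 2738543 to 2738897, had a Dll score of 10.17 and an Sp1 score of 10.24. The second, from 2748872 to 2749247, had the highest values of the 4, with 26.34 for Dll and 14.07 for Sp1. The third and the fourth lay 30683 bp farther on and 460 bp from each other, and had the lowest values, with 5.82 and 4.26 for Dll and 5.87 and 5.99 for Sp1. The regions of this gene thus ran from rank 97.9 of the Dll list to rank 4.73. Within 10 kb lay 20 peaks of each factor, and 10 of the Dll peaks and 6 of the Sp1 peaks had no partner. The Sp1 peak with the highest score of its whole list, 84.94, was among these 6. In the whole lists, 43.1% of Dll peaks and 72.1% of Sp1 peaks overlapped the other factor.

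*disco*, a zinc finger gene of the ventral appendages, showed a similar contrast between its 2 regions on X. The first, from 16099784 to 16100027, had scores of 5.09 for Dll, at rank 24.5, and 4.04 for Sp1, at rank 3.45. The second, from 16110842 to 16111642, lay 10815 bp away and had 22.33 and 33.73. All 5 Sp1 peaks around the 2 regions overlapped Dll, and such full overlap was found at 27 of the 51 genes. *dve*, a homeobox gene active in leg joints and gut, had 3 regions on 2R with gaps of 17541 and 9498 bp. Its Dll scores were 6.13, 20.82 and 12.58 and its Sp1 scores 12.91, 10.24 and 22.70, so that each factor was strongest at a different region.

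*jing*, which encodes a zinc finger protein related to AEBP2, had the most regions and the longest span. Its 6 regions on 2R began at 2401530 and ended at 2483540, with gaps of 15055, 16943, 256, 13694 and 32452 bp. The third and the fourth, from 2434672 to 2435466 and from 2435722 to 2436549, shared a Dll peak with a score of 37.81, at rank 99.7, and had separate Sp1 peaks with 26.96 and 38.75. The other 4 had Dll scores of 12.80, 12.67, 15.46 and 18.19 and Sp1 scores of 14.55, 21.67, 10.48 and 7.03. Of the 29 Dll peaks around them, 18 had no Sp1 peak, and in the whole Dll list 43.1% of peaks overlapped one. *jing* thus combined a strong middle interval with weaker ones on both sides.

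*shn* encodes a zinc finger protein that acts with Mad in the response to Dpp. Its 4 regions on 2R lay in a group of 3, with gaps of 253 and 90 bp, and a single region 14189 bp away. The first and the second shared a Dll peak with a score of 18.25 and had Sp1 scores of 8.32 and 7.34. The third and the fourth were stronger, with 28.61 and 22.39 for Dll and 22.40 and 27.90 for Sp1. Around them lay 21 Dll peaks and 25 Sp1 peaks, and every one of these Sp1 peaks overlapped a Dll peak. *ovo*, which directs the formation of trichomes in the epidermis, also had 2 groups of regions, on X. The first group shared a Dll peak with a score of 32.82 and had Sp1 scores of 13.31 and 19.78, and the second, 18046 bp away, had 24.83 and 25.64 for Dll and only 10.38 and 4.26 for Sp1. *ovo* had 23 Dll peaks within 10 kb, 16 of them without an Sp1 peak, and all 11 of its Sp1 peaks overlapped Dll. Both *shn* and *ovo* were among the 27 of 51 genes at which every Sp1 peak within 10 kb overlapped Dll. In the whole Dll list, 43.1% of peaks overlapped an Sp1 peak.

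Of the genes named for the regions, *Eip74EF*, *EcR* and *crol* belong to the response to ecdysone, the steroid hormone that triggers metamorphosis. *Eip74EF*, which encodes an ETS factor, had 4 regions on 3L, all more than 10 kb apart, with gaps of 13294, 12058 and 20533 bp, and each had its own Dll peak and its own Sp1 peak. Their Dll scores lay between 12.18 and 20.68 and their Sp1 scores between 18.55 and 27.90, and all 4 Sp1 peaks were above rank 94. *EcR*, the ecdysone receptor gene, had 2 regions 9399 bp apart with Dll scores of 18.92 and 12.42 and Sp1 scores of 7.05 and 8.32, and the strongest peaks of both factors within 10 kb lay outside them. *crol*, a zinc finger gene that responds to ecdysone, had 3 regions within a Dll peak on 2L from 11804689 to 11808321, which at 3632 bp was the longest Dll peak to hold several regions. Its score was 29.48, and the Sp1 scores were 11.83, 25.12 and 21.52.

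**Figure D5:**
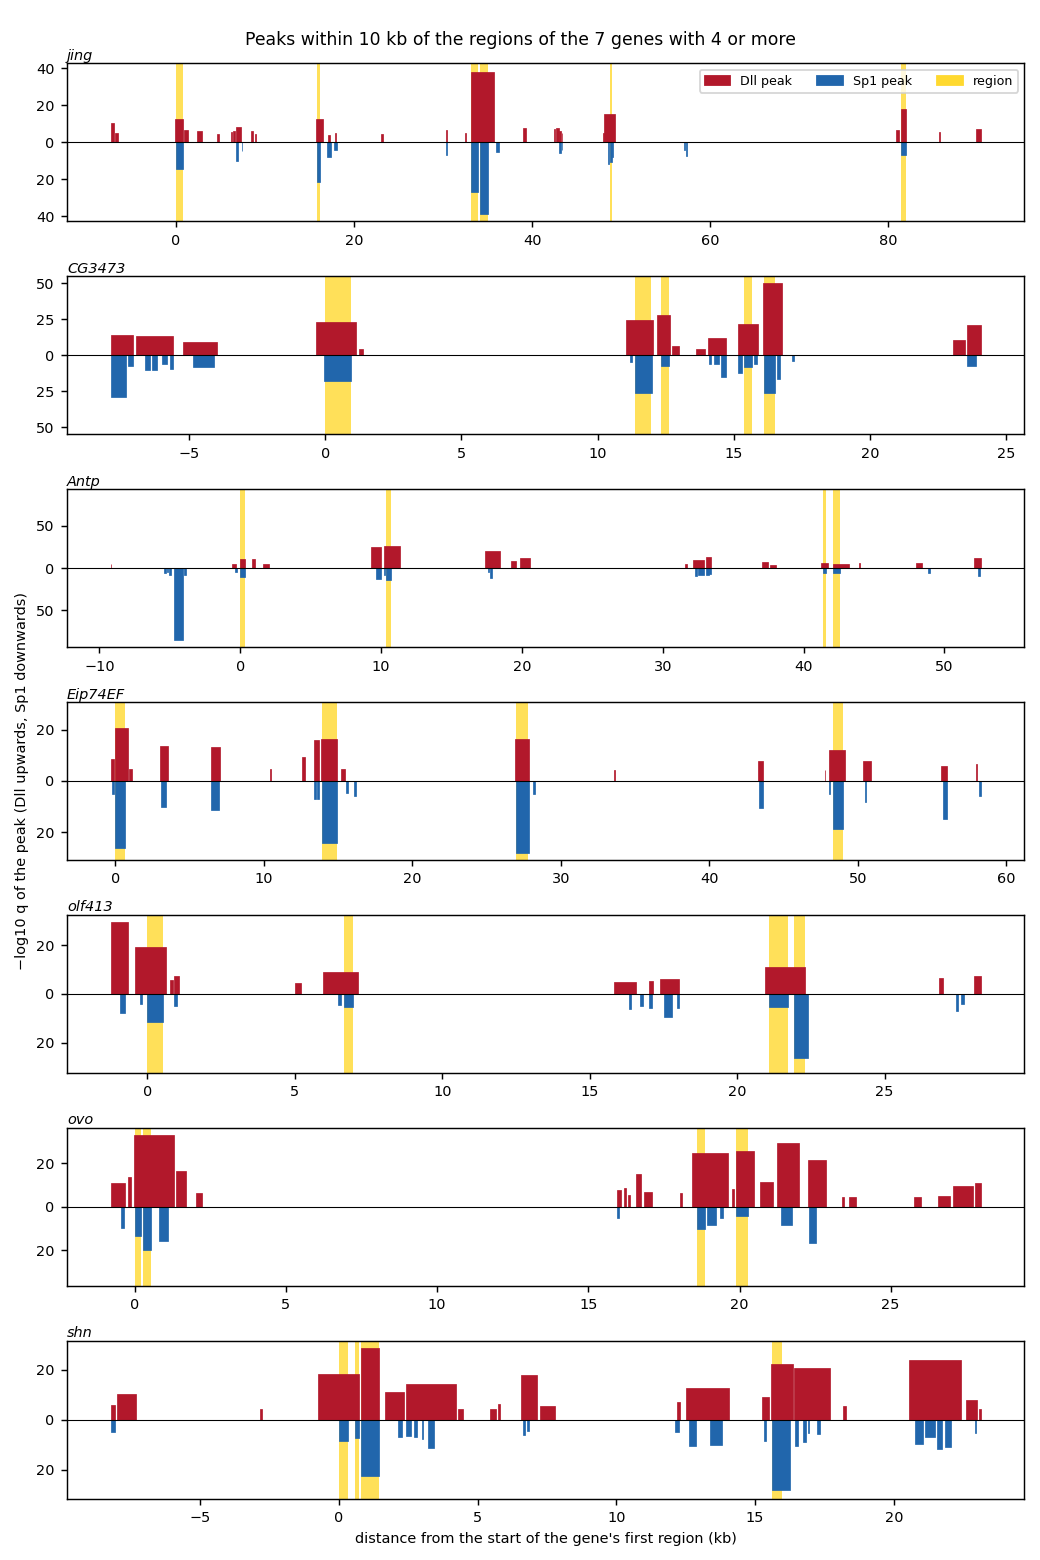
Dll peaks (red, upwards) and Sp1 peaks (blue, downwards) within 10 kb of the regions (yellow) of the 7 genes with 4 or more regions, drawn to scale as −log10 q against the distance in kb from the start of the first region. The Sp1 peak of 84.94 at *Antp* lies 4061 bp from the nearest region and has no Dll peak, and the regions of *Eip74EF* each have their own peaks of both factors.

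Among the other transcription factors, *aop* encodes the ETS repressor Yan, which EGFR signalling inactivates. Its 3 regions on 2L lay within 1728 bp, with Dll scores of 14.47, 14.47 and 13.83 and Sp1 scores of 13.75, 12.56 and 4.52, and the strongest peaks within 10 kb lay at distances of 219 bp for Dll, with 16.34, and 416 bp for Sp1, with 14.04. *OdsH*, a homeobox gene, had 2 regions in a Dll peak with a score of 37.03, with Sp1 scores of 29.82 and 17.26. The 2 regions of *pdm3*, a POU domain gene, had 24.75 and 19.61 for Dll and 14.51 and 27.90 for Sp1. *bs*, the *Drosophila* serum response factor gene, had 2 regions with 11.88 and 17.03 for Dll and 22.09 and 15.98 for Sp1. *bs* and *ttk*, a BTB zinc finger repressor gene, were 2 of the 4 genes with the fewest Dll peaks around their regions. The first region of *ttk* had a Dll score of 5.99 and an Sp1 score of 25.73, and the second had 13.37 and 11.09. *vri* (a bZIP factor of the circadian clock), *ush* (a cofactor of GATA factors) and *lbl* (a homeobox gene) each had 2 regions with Dll scores between 9.85 and 27.05 and Sp1 scores between 12.05 and 26.58.

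In the Notch pathway, *Ser* encodes a ligand of Notch and *fng* the glycosyltransferase that sets which ligand Notch answers to. The 3 regions of *Ser* on 3R had higher scores for both factors the farther along the chromosome they lay, with 5.71, 19.34 and 33.19 for Dll and 4.53, 13.62 and 24.19 for Sp1. The first gap was 22833 bp and the second 6446 bp. The 2 regions of *fng* on 3L, 13057 bp apart, had 8.50 and 24.32 for Dll and 9.26 and 22.40 for Sp1. At both genes the last region thus held the strongest peaks of both factors within 10 kb. All of the 9 Sp1 peaks at *Ser* and the 10 at *fng* overlapped Dll, and such full overlap was found at 27 of the 51 genes.

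In the Wnt and EGFR pathways, the 2 regions of *fz2*, a receptor for Wg, were strong for both factors. They lay 21826 bp apart on 3L, with Dll scores of 28.04 and 30.89 and Sp1 scores of 17.26 and 29.82. *spi*, the TGF-α-like ligand of EGFR, had 2 regions on 2L 3412 bp apart. Their Dll scores were close to each other, 16.58 and 16.25, whereas their Sp1 scores were 7.05 and 23.12. The second region, from 19575233 to 19576727, was the longest of the 132 at 1494 bp. *ex*, which encodes a FERM protein upstream in the Hippo pathway, had Dll scores of 18.62 and 32.51 and Sp1 scores of 18.91 and 15.78, and 22 Sp1 peaks lay around its 2 regions, 21 of them with a Dll peak.

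Of the other signalling genes, 3 had spans under 2 kb. *upd3*, a ligand of the JAK/STAT pathway, had 2 regions within 1023 bp, with 12.47 and 28.73 for Dll and 18.09 and 20.64 for Sp1. *14-3-3epsilon*, an adaptor of Ras signalling, had 2 regions 81 bp apart in a Dll peak with a score of 17.09, and its Sp1 scores were 14.94 and 4.62. *cv-c*, a RhoGAP gene, had 17.58 and 11.16 for Dll and 22.37 and 11.50 for Sp1. *InR*, the insulin receptor gene, was spread over 16012 bp, and its 3 regions had Dll scores of 20.55, 5.11 and 27.46 and Sp1 scores of 7.05, 16.45 and 33.73. Stronger peaks of both factors lay 2201 and 3022 bp outside them, with 30.84 for Dll and 43.97 for Sp1. *Tlk*, a kinase gene, had Dll scores of 7.53, 29.01 and 29.01 and Sp1 scores of 13.31, 13.31 and 11.09. *par-1*, which encodes a kinase of cell polarity, had 10.62 and 14.10 for Dll and 4.53 and 7.03 for Sp1, none of them at rank 90 or above.

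Among the chromatin genes, the first 2 regions of *Tet* shared a Dll peak with a score of 26.93 and had Sp1 scores of 27.97 and 14.24, and the third, 13559 bp away, had 17.58 and 25.12. *tou*, whose protein has a bromodomain, had 3 regions over 32379 bp with Sp1 scores of at most 9.68. The first region of *Art9*, an arginine methyltransferase gene, had a Dll score of 42.60 and an Sp1 score of 22.40.

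Some of the highest scores were found at genes outside the 3 role lists. *CG3473*, for which RefSeq gives Ube2N, a ubiquitin-conjugating enzyme, as a synonym, had 5 regions on 2L, each in its own Dll peak. Their Dll scores were 23.15, 24.62, 28.17, 21.45 and 49.86, all above rank 95, and their Sp1 scores were 18.31, 26.46, 7.68, 8.32 and 26.03. The 3 regions near *tRNA:K2:56EF*, a lysine tRNA gene, lay within 1907 bp on 2R, with Dll scores of 46.03 for the first and the second, which share a peak, and 42.44 for the third, and Sp1 scores of 18.85, 30.26 and 31.28. The first region near *Cpr12A*, a cuticle protein gene, had a Dll score of 47.19, and the first near *CG42238* had 41.00 for Dll and 40.82 for Sp1. *Rh5*, an opsin gene, had 3 regions with Dll scores from 14.35 to 17.17 and Sp1 scores from 21.27 to 25.22. *olf413* had 4 regions with Dll scores of 19.35, 8.94, 11.02 and 11.02 and Sp1 scores of 11.61, 5.25, 5.56 and 26.20. *chic*, the profilin gene, had the weakest best region of all 51 genes by Dll score, with 5.77 and 6.02 for its regions, at ranks 34.2 and 39.5, and its Sp1 peaks were at ranks 84.8 and 39.8. Within 10 kb of these weak regions lay 21 Sp1 peaks, 6 of them without a Dll peak, and 72.1% of the whole Sp1 list overlapped one. At the remaining 12 genes of this group, Dll scores under a region ran from 5.49 at *Ppa* to 30.7 at *CG13541* and Sp1 scores from 6.49 at *laf* to 22.40 at *CG15258* and *CheA75a*.

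The order of genes in a later RefSeq release gives the neighbours of these genes, by name only. The gene model of *CG1677* holds 13 other protein-coding genes, among them *brk*, a repressor of Dpp targets, and that of *Mur2B* holds *br*, an early gene of the ecdysone response. *CG15258* lies between *esg* and *wor*, which encode zinc finger proteins of the Snail family, and *Art9* lies next to the homeobox gene *ems*. *tou* lies next to the homeobox gene *en*, *laf* next to the zinc finger gene *opa*, and *lbl* next to its homeobox neighbour *lbe*. The pro-apoptotic gene *hid* and the HLH gene *emc* are each the second gene to a side of *CheA75a* and of *CR43785*. These neighbours were picked after the genes were known. Which of them lies closest to a given region was not measured, since dm3 gene positions were not used here. Regions of other genes were rare in the windows: 4 of the 51 genes, *CG3473*, *Dll*, *Rh5* and *ex*, had a region named for another gene or for none within 10 kb, and there were 5 such regions.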

How the data were processed

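Per the authors' methods, reads were aligned with the Burrows-Wheeler Aligner to dm3 and peaks were called with MACS2 (version 2.0.9 in the submitters' processing notes) on merged ChIP libraries against input. The methods speak of triplicate pools and of merged duplicates, so which libraries were merged is not known here. The deposited value of a peak is its −log10 q value, and no reads were processed again.

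Regions and nearest genes were taken from the study's list of intersections, and rows without a gene were left out of the members. An overlap needed 1 shared bp, starts were read as counted from 0, and windows reached 10 kb from the ends of a region. Percentile ranks were taken within each list, with ties averaged. Shares have 95% Wilson intervals. All 51 genes were found in the RefSeq gene table of release 6, used for names and order only. Of them, 49 are protein-coding, and no dm3 sequence was used here. Python 3.11.15, numpy 2.4.6, pandas 2.3.3, scipy 1.17.1, statsmodels 0.14.6 and matplotlib 3.10.9 were used. The interval functions were tested on simulated data and recovered what was planted in all 200 lists.

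The members, role lists and alternatives were chosen with earlier results of these data known. Described in full were genes with 4 or more regions, genes of limb patterning and of the Notch, Wnt, EGFR, Dpp and Hippo pathways, and genes at an extreme of a measure. Further genes were named after their values were seen. No test was made, since no value belongs to a single library.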

Additional observations from a re-analysis of the deposited data

How the results depend on the processing

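No paired analysis was possible because each deposited list comes from merged libraries and holds no value for a single replicate, and leaving out a replicate could not be done for the same reason. In all, 47 alternatives were computed for 11 results. Of these, 32 stayed within 1.5 times a count or within the 95% binomial interval of a share or median, and 15 did not. The intervals treat peaks and regions as independent, which they are not, and 1.5 times is a set limit. The tally is therefore a description and no measure of robustness. The number of genes ranged from 43, by nearest transcript, to 53 chains of regions within 10 kb. Within 10 kb, the upper part of each list by score held 370 Dll and 397 Sp1 peaks, and joining peaks within 500 bp left 250 and 252. The share of Dll peaks that overlap Sp1 was 24.0% with at least 50% of both peaks required, 49.4% when a Dll peak had to contain the whole Sp1 peak, 63.4% within 5 kb and 50.2% without peaks under a region. The share of Sp1 peaks that overlap Dll was 23.9%, 77.1%, 93.0% and 87.5% in the same order, and 83.5% among peaks with a −log10 q of at least 10. With the best region of each gene, the median rank was 97.0 for both factors, which is raised by taking the highest of several values. Since depth is unknown, a missing peak may be one that was too weak to be called.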
